A study of Caenorhabditis elegans with 2 samples.

Results

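The 50 genes described here are named as genes for proteins of the large subunit of the cytosolic ribosome of Caenorhabditis elegans. They are the protein-coding genes of the Ensembl annotation whose names start with rpl- or rla-, out of 19973 protein-coding genes on the nuclear chromosomes. Membership rests on the name alone, and whether each product is part of the mature subunit was not checked. The rule uses no binding value. Binding of the transcription factor HSF-1 to them was read from peak lists of chromatin immunoprecipitation followed by sequencing (ChIP-seq).

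The study has 1 group, with 2 biological replicates. The animals were young adults of 63 h of strain RW12254, synchronised by starving hatched larvae after bleaching. In this strain the insertion st12254[hsf-1::TY1::EGFP::3xFLAG], made by genome editing at the hsf-1 gene on chromosome I, joins a green fluorescent protein and epitope tags to HSF-1, and an antibody against GFP was used for precipitation. The labels name no heat treatment and no second genotype, so the lists describe binding in 1 condition, in whole animals in which tissues are mixed. No input or untagged library was analysed here, and what the peaks owe to the tagged protein was therefore not tested.

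The large subunit forms peptide bonds and carries the tunnel through which the new protein leaves. Its proteins surround the ribosomal RNA, and their genes are among the most strongly transcribed in growing cells. In C. elegans several of these genes lie in operons, and introns of some hold small nucleolar RNA (snoRNA) genes, whose products guide modification of ribosomal RNA. HSF-1 is the conserved activator of heat shock genes. It is known for binding the heat shock element, a row of alternating GAA and TTC units with 2 free bases between them.

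A gene was called bound when the summit of a thresholded peak lay between 1000 bp upstream and 200 bp downstream of one of its transcript starts. In the pooled list of both replicates, which holds 2935 peaks, 19 of the 50 large subunit genes were bound, or 38.0% with a 95% Wilson interval of 25.9% to 51.8%. Of all protein-coding genes, 7.63% were bound. The list of replicate 1, with 1217 peaks, placed a summit in the window of 13 large subunit genes (26.0%), against 3.83% of all protein-coding genes. The list of replicate 2, with 1877 peaks, did so for 18 (36%), against 5.29%. A conservative list of both replicates, with 2572 peaks, gave 22 genes (44.0%), against 7.11%. The share was thus several times that of all genes in each of the 4 lists. The intervals cover the counting of genes only, since the sources used here do not give the number of reads behind the lists.

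Sequence around the strongest and the most alike of these summits is shown first, because it holds letters that many of them share. Each run covers 70 bp on either side of the summit on ce11, is written in the direction of the gene and lies outside annotated coding sequence and untranslated regions. Capitals mark 3 words of 6 letters that were picked after the data were seen. The first is ACACTC, which reads GAGTGT on the other strand. The second is ACCGTA, which reads TACGGT there, and the third is CCTAAA, which reads TTTAGG there. The 3 strongest summits at these genes are those of rpl-3, at chrIII:3867508-3867648 (+ strand), of rpl-20, at chrIV:4749994-4750134 (- strand), and of rpl-15, at chrIV:654856-654996 (- strand).
rpl-3: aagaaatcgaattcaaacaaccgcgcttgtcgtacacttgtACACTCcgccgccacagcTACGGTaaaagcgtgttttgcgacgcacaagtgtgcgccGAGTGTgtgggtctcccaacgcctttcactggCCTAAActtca
rpl-20: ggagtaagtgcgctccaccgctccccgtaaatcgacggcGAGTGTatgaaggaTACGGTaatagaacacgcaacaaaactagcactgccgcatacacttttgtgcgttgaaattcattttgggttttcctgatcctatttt
rpl-15: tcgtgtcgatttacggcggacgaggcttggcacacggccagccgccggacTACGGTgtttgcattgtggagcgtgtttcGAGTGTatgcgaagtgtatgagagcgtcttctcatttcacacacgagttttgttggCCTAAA
In the next 2, read along the gene, the other-strand form of the first word, GAGTGT, is followed by 1 base and then by the second word as ACCGTA. They belong to rpl-29, at chrIV:13881893-13882033 (+ strand), and to rpl-21, at chrIII:8130481-8130621 (- strand).
rpl-29: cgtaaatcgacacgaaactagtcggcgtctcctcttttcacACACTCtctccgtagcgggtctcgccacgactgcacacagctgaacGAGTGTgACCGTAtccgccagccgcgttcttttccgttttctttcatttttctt
rpl-21: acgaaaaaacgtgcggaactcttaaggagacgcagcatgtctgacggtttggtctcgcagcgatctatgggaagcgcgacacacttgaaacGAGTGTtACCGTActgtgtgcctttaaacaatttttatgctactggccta
The summit of rpl-35, at chrIII:7854612-7854752 (+ strand), ranked next after the 3 strongest and is shown because it holds none of the 3 words.
rpl-35: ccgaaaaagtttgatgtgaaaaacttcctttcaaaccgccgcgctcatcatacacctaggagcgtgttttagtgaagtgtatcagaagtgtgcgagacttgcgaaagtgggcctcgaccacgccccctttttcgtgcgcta

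Within 100 bp of the summit, on either strand, the first word was present at 10 of the 20 promoter summits of large subunit genes (50%), against 10.8% of all 1338 summits in promoter windows. The second word was present at 10 (50%), against 13.6%, and the third at 9 (45.0%), against 10.8%. Because the words were chosen as the most frequent at these 20 summits relative to the others, these counts describe the choice and are no independent result. At least 2 of the 3 words were found at 10 of the 20 summits, against 62 of the 1338 (4.63%). The first word, extended by 1 letter to ACACTCG, was found at 8 (40.0%), against 2.32% of all promoter summits, and GGCCTAA, which holds most of the third word, at 6 (30.0%), also against 2.32%. These longer words were picked at the same 20 summits, so these counts and that of 2 or more words are no independent result either.

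The words kept different places. Of 12 matches of the first word 11 lay within 50 bp of the summit, as did 9 of 10 matches of the second word but 1 of 10 matches of the third, 9 of which lay 52 bp or more toward the gene. This arrangement, the first word in its other-strand form, 1 base and then the second word, read on either strand, stood at 4 of the 20 summits, those of rpl-21, rpl-22, rpl-24.1 and rpl-29. The whole nuclear genome holds 34 such pairs. Of all 2935 pooled summits, 12 have one within 100 bp. Both words of the pair were picked at the 20 summits, so its count there is no independent result.

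**Figure D1:**
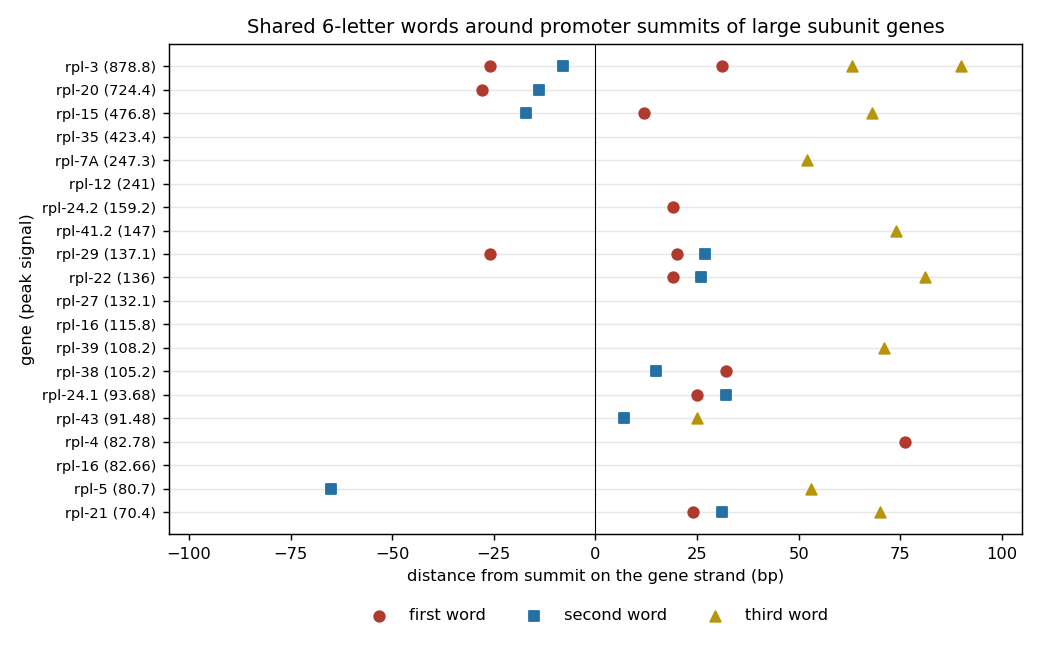
Position of the 3 shared words around the 20 promoter summits of large subunit genes, in bp from the summit along the gene strand, with genes ordered from the strongest peak (top) to the weakest; each point is 1 match. The first word (circles) and second word (squares) lie mostly within 50 bp of the summit and the third (triangles) lies farther toward the gene. The rows of rpl-35, rpl-12, rpl-27 and both summits of rpl-16 hold no match.

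The words were also counted over the 500 bp upstream of the outermost start, in genes whose stretch shares no base with the sequence used to choose them. These are the 31 large subunit genes that were not bound and 29 of the 31 small subunit genes, bound or not. The first word was present in 25.8% of these large subunit genes (Wilson interval 13.7% to 43.2%) and in 24.1% of these small subunit genes (12.2% to 42.1%), against 15.7% of all protein-coding genes, which lies within both intervals. The second was present in 48.4% of the large subunit genes (32.0% to 65.2%) and in 34.5% of the small subunit genes (19.9% to 52.7%), against 13.9%. The third was present in 58.1% of the large subunit genes (40.8% to 73.6%) and in 58.6% of the small subunit genes (40.7% to 74.5%), against 21.4%. For the second and the third word the share of all genes thus lay below both intervals. ACACTCG was present in 12.9% of the large subunit genes (5.13% to 28.9%) and in 13.8% of the small subunit genes (5.50% to 30.6%), against 2.63%. The adjoining pair stood upstream of 4 of the 31 large subunit genes and 4 of the 29 small subunit genes, against 41 of all 19973 (0.205%). The same pair can lie upstream of several genes, so these are counts of genes and not of separate pairs. The 4 large subunit genes are rpl-1, rpl-6, rpl-11.2 and rpl-34. The 19 bound large subunit genes, whose summits gave the words, were counted likewise. ACCGTA was present in 52.6% of them (31.7% to 72.7%) and CCTAAA in 68.4% (46.0% to 84.6%). ACACTC was present in 47.4% (27.3% to 68.3%) and ACACTCG in 42.1% (23.1% to 63.7%). Each interval overlaps that of the 31 genes that were not bound, slightly for ACACTCG and widely for ACCGTA. Overlap of intervals does not settle whether the groups differ, and they were not compared directly. Whether a word goes with binding was not tested.

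The heat shock element was also searched at these summits. An element of 3 units without mismatch was found within 100 bp of none of the 20 (Wilson interval 0% to 16.1%), against 9.57% of the summits in promoter windows and 16.6% of all pooled summits. With 1 mismatch allowed it was found at 2 of the 20 (10%, interval 2.79% to 30.1%), against 24.8% and 29.4%, which lie within the interval. Within 200 bp it was found at 7 of the 20, but no share of other summits is given for this wider stretch. The shares above, for 100 bp, cannot be set beside it. The 20 summits thus had no perfect element. The 16.6% of all pooled summits lies just above the interval of 0% to 16.1%, but the 9.57% of promoter summits lies within it. Too few were counted to set this share apart from that of other promoter summits. The same holds for their share with 1 mismatch, beside promoter summits and all pooled summits. The rpl-7A summit had 1 element with 1 mismatch within 100 bp, but outside its narrow peak, which spans chrIV:4390604-4390710. The element lies at chrIV:4390729-4390741 (- strand). It begins 80 bp upstream of the summit along the gene and is printed with 5 bases on either side and its units in capitals, where the last unit, TTA, carries the mismatch.
rpl-7A: tcgttTTCgcGAAttTTAagaca
The downstream summit of rpl-16 had 2, both in coding sequence. The forms of 2 units, GAANNTTC and TTCNNGAA, were each present at 10% of the 20 summits (interval 2.79% to 30.1%). Of all promoter summits 21.3% and 23.0% held them, which lie within the interval. Among other listed motifs, TTTNNCGC was present at 20% of the 20 summits, against 24.2% of all promoter summits, TATAAA at none, against 15.2%, and TTTCAG at 35%, against 28.5%. The motifs were searched as exact letters on both strands, and a match is not a measured site.

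The signal of a peak is the peak caller's value, given here to describe peaks within 1 list. Over the 19 bound large subunit genes the median of the strongest promoter signal in the pooled list was 136, with a 95% order-statistic interval of 93.7 to 247, against a median of 108 over all 1524 bound genes. The strongest was 878.8 at rpl-3 and the weakest 70.40 at rpl-21. The values fell into a group of 4 above 400, a pair near 240 and a tail of 13 genes.

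**Figure D2:**
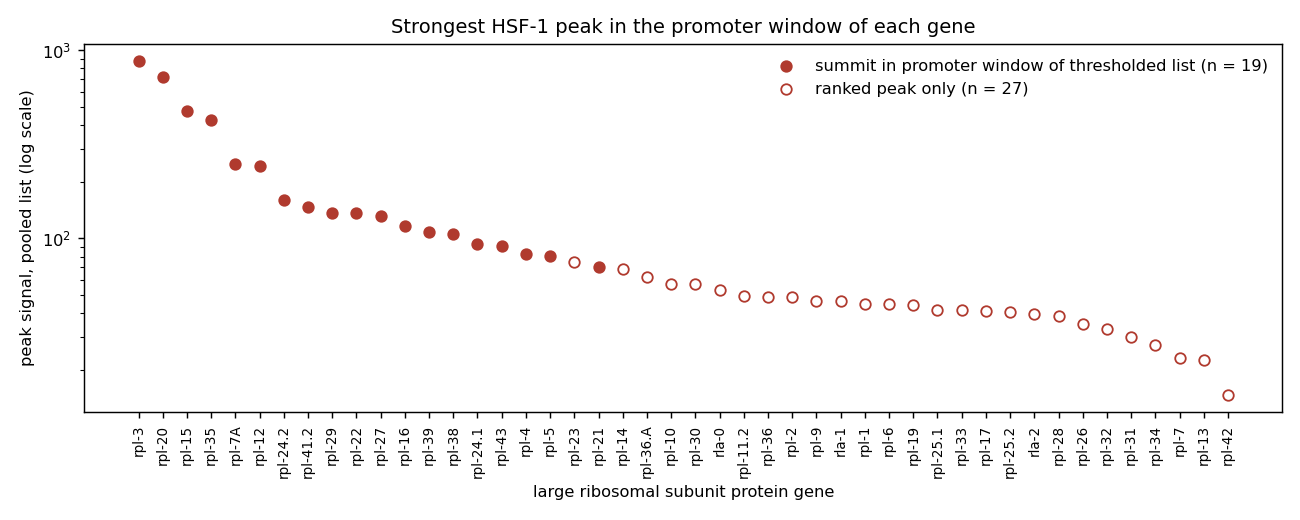
Signal of the strongest pooled peak in the promoter window of each of the 46 large subunit genes that have one, on a log scale, ordered from high to low. Filled circles are the 19 genes with a thresholded summit, from 70.40 to 878.8; open circles are 27 genes whose best peak is in the ranked list only, at 14.7 to 74.6.

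The 4 strongest belong to proteins of different places in the subunit, as known from yeast and mammalian ribosomes. The protein of rpl-3 reaches toward the peptidyl transferase centre. Its summit, 276 bp upstream of the start on chromosome III (WBGene00004414), scored 372 in replicate 1 and 521 in replicate 2 by signal, and ranked 70 in the pooled list. No other protein-coding promoter shares it. The rpl-20 summit on chromosome IV (WBGene00004432), 286 bp upstream, had 340 in replicate 1 and 393 in replicate 2, and also lies 176 bp upstream of the divergent gene Y17G9B.5. The rpl-15 summit (WBGene00004427), 350 bp upstream, had 166 in replicate 1 and 320 in replicate 2, and a pooled signal of 476.8. It is 464 bp upstream of the divergent K11H12.8. These 3 were in both replicate lists, with the higher value in replicate 2 each time, and lists of the replicates are not scaled to each other.

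Proteins around the exit of the nascent chain tunnel gave a mixed picture. The product of rpl-35 sits at this exit, and its promoter had the fourth strongest summit, 452 bp upstream on chromosome III (WBGene00004449). It had a pooled signal of 423.4, with 198 in replicate 1 and 236 in replicate 2. No other promoter shares it. The summit of rpl-39, whose small protein lines the tunnel, had a pooled signal of 108.2, with 34.5 in replicate 1 and 81.6 in replicate 2. It was thresholded in replicate 2 only, and it lies about midway between rpl-39 and the divergent rps-30, 246 and 253 bp upstream of their starts. It is also 975 bp upstream of the divergent C26F1.3. A pair of noncoding RNA genes, C26F1.13 and C26F1.14, lies under this peak, and a further peak with signal 183.0 lies 1200 bp upstream of rpl-39, outside the window. For rpl-4, whose product extends into the tunnel wall, the summit was 194 bp downstream of the start, inside an intron. That intron holds the snoRNA gene B0041.9, which lies under the summit. The rpl-4 summit is also 655 bp upstream of the start of B0041.8, on the opposite strand. Its pooled signal was 82.78, with 42.3 in replicate 1 and 45.7 in replicate 2, and neither replicate list held it. Among genes for other proteins at or near the tunnel, rpl-17, rpl-25.1, rpl-25.2, rpl-26 and rpl-31 were not bound. The tunnel genes named here were picked after their values were seen and are not a full list. No share of tunnel genes bound follows from them.

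The stalk of the large subunit recruits translation factors, and its base is formed by the rpl-12 protein with the P0 protein encoded by rla-0. At rpl-12 (WBGene00004424) the summit lay 25 bp upstream of the start, with a pooled signal of 241.0, with 107 in replicate 1 and 146 in replicate 2. It is 368 bp upstream of the divergent lin-54, the gene of a DNA-binding subunit of the DREAM repressor complex. The stalk gene rla-0 was not bound, and its best ranked pooled peak had a signal of 53.0. The stalk gene rla-1 shows how much a window edge can decide: its pooled summit, with a signal of 140.5, lies 201 bp downstream of the start, 1 bp outside. The list of replicate 1 placed its summit 93 bp downstream with a signal of 47.2, the list of replicate 2 placed it 137 bp downstream with 82.9, and both fall inside. Thus rla-1 was bound in each replicate list but not in the pooled one. In the conservative list it was bound through a different summit, 13 bp upstream with a signal of 46.2, so the window edge does not describe that call. The remaining stalk gene, rla-2, had a best ranked pooled signal of 39.6.

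Proteins that bind 5S ribosomal RNA are encoded by rpl-5 and by the paralogues rpl-11.1 and rpl-11.2. The rpl-5 summit, 390 bp upstream, had a pooled signal of 80.70, with 36.5 in replicate 1 and 47.9 in replicate 2, and was thresholded in replicate 2 only. It lies 449 bp upstream of the divergent collagen gene col-38 and over the noncoding genes F54C9.16 and F54C9.17. Neither rpl-11 paralogue was bound.

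Pairs of genes that share a number in their names were not alike. Both genes named rpl-24 were bound. The rpl-24.2 summit lay 172 bp upstream, inside an intron of C03D6.1, and had a pooled signal of 159.2, with 83.8 in replicate 1 and 68.3 in replicate 2. The protein of rpl-24.1 bridges to the small subunit in other eukaryotes. The rpl-24.1 summit lay 271 bp upstream and 339 bp upstream of the divergent small subunit gene rps-10, with a pooled signal of 93.68, with 42.7 in replicate 1 and 46.7 in replicate 2. It was in neither replicate list, and the noncoding gene D1007.22 and the piRNA gene 21ur-11631 lie under it. Of the neighbouring rpl-41 genes, rpl-41.2 had a summit 281 bp upstream, with a pooled signal of 147.0, with 46.3 in replicate 1 and 110 in replicate 2. The window of rpl-41.1 held no ranked pooled peak, and the same rpl-41.2 summit lies 419 bp past the end of rpl-41.1. Neither rpl-25 gene was bound.

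The kink-turn binding protein of eukaryotic ribosomes encoded by rpl-7A had a summit 71 bp upstream of its start and 183 bp upstream of the divergent set-21, a SET domain gene. Its pooled signal was 247.3, with 102 in replicate 1 and 156 in replicate 2. The summits of rpl-29, rpl-22 and rpl-27 had pooled signals of 137.1, 136.0 and 132.1 and were in both replicate lists. That of rpl-29 had 62.7 in replicate 1 and 72.1 in replicate 2, and lies 771 bp upstream of thoc-7, a THO complex gene on the same strand. That of rpl-22 had 63.0 in replicate 1 and 79.9 in replicate 2, and lies 192 bp upstream of the divergent ify-1, the securin gene. That of rpl-27 is in its own coding exon, 76 bp downstream of the start, with 60.7 in replicate 1 and 77.5 in replicate 2. It also counts for egl-30, the gene of a Gq alpha subunit, and for C53H9.4, both on the same strand.

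The weaker bound genes were seen mostly in 1 replicate. At rpl-16 a summit 184 bp downstream, in its coding exon, had a pooled signal of 115.8, with 48.1 in replicate 1 and 64.6 in replicate 2. A second one, 421 bp upstream in a coding exon of lias-1, the lipoic acid synthase gene, had 82.66, with 56.9 in replicate 1 and 25.7 in replicate 2. The downstream summit of rpl-16 also counts for M01F1.8, and both were thresholded in replicate 1 only. For 3 further genes the peak was thresholded in replicate 2 only. The pooled signal was 105.2 at rpl-38, with 33.7 in replicate 1 and 80.2 in replicate 2, and 91.48 at rpl-43, with 38.5 in replicate 1 and 51.4 in replicate 2. It was 70.40 at rpl-21, with 33.1 in replicate 1 and 60.7 in replicate 2. The rpl-43 summit, 729 bp upstream, is the farthest, and is closer to the divergent Y48B6A.1, at 192 bp. The rpl-21 summit lies 324 bp upstream of rpl-21 and 301 bp upstream of the divergent C14B9.10, while that of rpl-38 is shared with no other gene.

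By gene, 11 of the 19 had their peak in both replicate lists (57.9%), 1 in that of replicate 1 only, 5 in that of replicate 2 only and 2 in neither. Over all 1524 bound genes, 663 (43.5%) were in both and 457 (30.0%) in neither. The large subunit genes seen in both included the 11 strongest of the 19 by pooled signal.

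**Figure D3:**
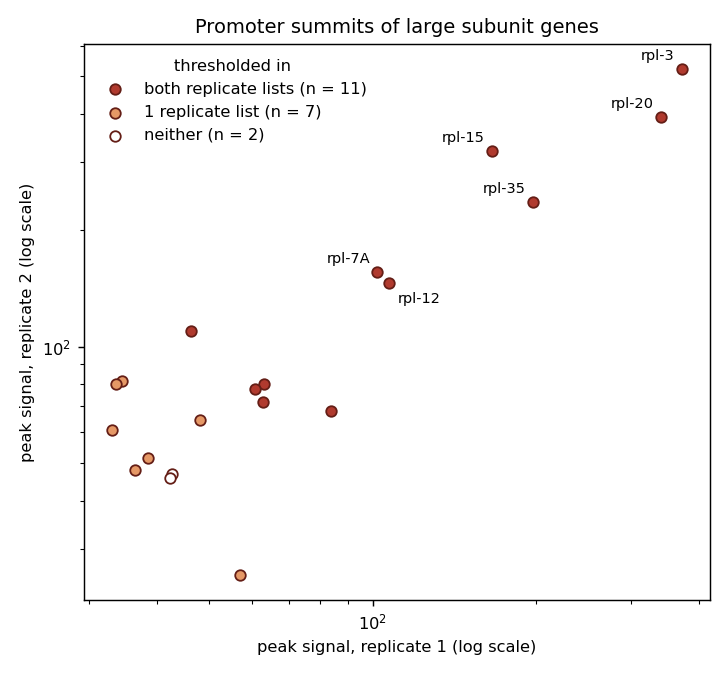
Signal at the 20 promoter summits of large subunit genes in replicate 1 (x axis) and replicate 2 (y axis), both on log scales, coloured by the thresholded replicate lists that hold the peak. The 4 strongest summits stand apart in both replicates, and the 2 open points, in neither list, have signals between 42.3 and 46.7.

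Most of the summits lay upstream of the start. The strongest summit lay 200 to 500 bp upstream of the start in 12 of the 19 bound genes (63.2%), against 33.0% of all bound genes. The median position was 271 bp upstream, with quartiles at 337 and 121 bp, against 247 bp upstream for all bound genes, with quartiles at 493 and 84 bp. Of the 19, 6 had a peak narrower than the fixed width of 304 bp that most peaks carry (31.6%), against 19.8% of all bound genes.

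The summit of 14 of the 19 genes (73.7%) lay also in the window of another protein-coding gene, against 661 of the 1524 (43.4%), and for these the gene cannot be told apart from its partner. Large subunit genes have close neighbours more often than most, so the shares were also taken by neighbour. With a head-to-head neighbour starting within 1000 bp upstream, 11 of 29 large subunit genes were bound (37.9%), against 13.8% of 3502 protein-coding genes. With a same-strand neighbour within that distance, 7 of 17 were bound (41.2%), against 9.43% of 5694, and with no such neighbour 1 of 4 was bound, against 4.66% of 10777. Within each kind of neighbour the large subunit share was the higher one, though the last rests on 4 genes.

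A snoRNA gene lies within 8 of the 50 large subunit genes (16%), against 192 of all 19973 (0.961%). Of the 8, 4 were bound, rpl-4, rpl-7A, rpl-15 and rpl-24.1, against 43 of the 192 (22.4%). A snoRNA gene lay under 1 of the 20 promoter peaks (5.00%), the rpl-4 one, against 2.39% of the 1338 promoter peaks. The summit itself lay inside a noncoding gene of any kind at 4 of 20 (20%), against 7.92%.

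More large subunit genes had a summit just past their end than in the promoter. This region was examined after the data were seen. In the pooled list a summit lay 1 to 500 bp past the annotated end of 34 of the 50 genes (68.0%, Wilson interval 54.2% to 79.2%), against 5.12% of all protein-coding genes. The list of replicate 1 gave 25 genes (50%), against 2.01%, and that of replicate 2 gave 29 (58%), against 3.41%. The peak was in both replicate lists for 22 of the 34 (64.7%), against 32.0% of the 1022 genes with such a summit. The median distance past the end was 150 bp, with a range of 4 to 419 bp, against a median of 173 bp for all 1022 genes. By 100 bp steps the large subunit share was 18%, 32%, 14%, 4% and 2%, and between 501 and 1100 bp past the end no large subunit gene had a summit.

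**Figure D4:**
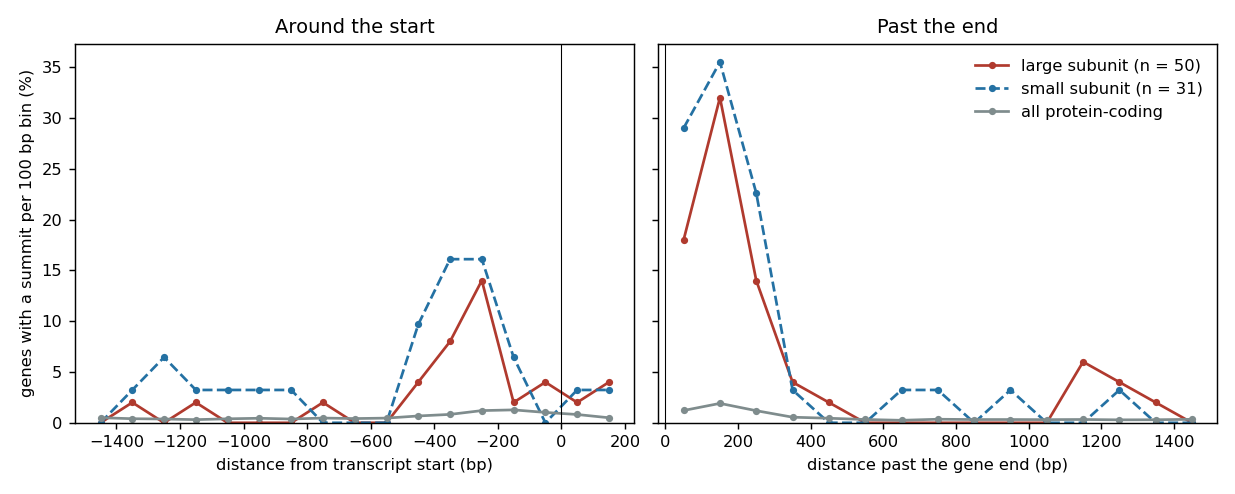
Share of genes with a pooled thresholded summit in each 100 bp bin around transcript starts (left) and past the gene end (right), for 50 large subunit genes (solid red), 31 small subunit genes (dashed blue) and all 19973 protein-coding genes (grey). The large subunit share peaks at 200 to 300 bp upstream of the start and, higher, at 32.0% from 101 to 200 bp past the end.

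The signals at the ends reached less far than those at the promoters, with a median of 136, a lowest value of 54.66 and a highest of 276.0, against a median of 94.1 for all 1022 genes. The strongest was at rpl-31, 300 bp past the end, with 121 in replicate 1 and 149 in replicate 2, over the long noncoding RNA gene linc-1. The promoter of rpl-31 was not bound. At rpl-4 the end summit, 113 bp past the end in a coding exon of lmd-2, had 266.4, with 142 in replicate 1 and 124 in replicate 2, against 82.78 at its promoter. The rpl-43 end summit, at chrII:14155753-14155877 and 239 bp past the end, had 254.4, with 109 in replicate 1 and 150 in replicate 2. It is also in the promoter window of xrn-2, the gene of a nuclear exonuclease on the same strand. At rpl-3 the end summit lay 4 bp past the end and had 244.2, with 123 in replicate 1 and 117 in replicate 2, below the 878.8 of its promoter. That of rpl-7A, at chrIV:4388928-4389148, had 234.3, with 80.1 in replicate 1 and 146 in replicate 2, and lies between genes, outside every promoter window.

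Both ends carried a summit in 17 of the 50 genes, the promoter alone in 2 (rpl-5 and rpl-24.2), the end alone in 17 and neither in 14. At least one was present in 36 (72.0%), against 11.0% of all protein-coding genes. In the 17 with both, the promoter summit was the stronger in 11 and the end summit in 6, and of all 343 such genes the promoter was the stronger in 71.4%. The inside of the gene, from 201 bp past the start to the end, held a summit in 4 of the 50 (8%), rla-1, rpl-7, rpl-25.2 and rpl-32, against 4.91% of all genes.

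The promoter of the next gene can lie where a gene ends. Of the 34 strongest end summits, 18 (52.9%) were also in the promoter window of another protein-coding gene, against 47.0% over all 1022 genes. Counting only summits outside every promoter window, 16 of the 50 large subunit genes had one (32.0%), against 2.72%. Where a same-strand gene begins within 500 bp past the end, 16 of 19 large subunit genes had an end summit (84.2%), against 9.18% of such genes. Where an opposite-strand gene lies there, 9 of 13 had one (69.2%), against 6.16%, and where no gene lies there, 9 of 18 (50%), against 3.87%. The large subunit genes are short, with a median of 753 bp and at most 1734 bp, against a median of 2027 bp for all. Of the 8382 protein-coding genes no longer than that, 5.54% had an end summit. The difference from other genes was thus present with and without a neighbour and, taken separately, beside short genes. Neighbour and length were not combined, and the cause of the difference was not tested.

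The same motifs were counted at the ends. The first word was present at 2.86% of 35 end summits, against 10.2% of all pooled summits, the second at 5.71%, against 9.64%, and the third at 5.71%, against 7.73%. No perfect heat shock element was found at the 35 (Wilson interval 0% to 9.89%). Of all pooled summits 16.6% held one, which lies above the interval, and of promoter summits 9.57%, which lies within it. With 1 mismatch 9 of the 35 held one (25.7%, interval 14.2% to 42.1%), against 29.4% of all pooled summits, which lies within the interval.

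The 31 large subunit genes without a thresholded promoter summit were looked up in the ranked list of 97869 peaks, which holds weaker peaks too. A ranked peak was present for 27 of them (87.1%), against 68.8% of all 18449 protein-coding genes that were not bound. The median best signal was 44.1, against 32.4. The range was 14.7 to 74.6, so that the highest exceeded the 70.40 of rpl-21, which is in the thresholded list. The irreproducible discovery rate (IDR), which measures how well a peak's rank agrees between sets of peaks, was 0.05 or less for 4 of the 31, against 869 of the 18449.

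The highest of these was rpl-23, at 74.6 with an IDR of 0.025, with 42.7 in replicate 1 and 41.2 in replicate 2. It was in the conservative list, 339 bp upstream. Next came rpl-14, at 68.5 with an IDR of 0.0129, whose peak was thresholded in replicate 2 with a signal of 51.9, 284 bp upstream. The ranked list of replicate 1 held no peak in this window. The gene rpl-36.A had 62.1 with an IDR of 0.0128, and rpl-30 had 57.0 with an IDR of 0.0115. The gene rpl-10, for a protein added late to the subunit near its active centre in yeast, had 57.5 with an IDR of 0.487, and its peak was in the conservative list, 119 bp downstream. At the low end rpl-7 had 23.1, rpl-13 had 22.5 and rpl-42 had 14.7. The windows of rpl-11.1, rpl-18, rpl-37 and rpl-41.1 held no ranked pooled peak, and a missing peak says only that none was listed at this depth. Of these 4, rpl-11.1 and rpl-41.1 had a summit past their end.

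Other genes of translation were counted in the same way. Of the 31 small subunit genes, 18 were bound (58.1%, Wilson interval 40.8% to 73.6%), an interval that overlaps that of the large subunit, and 26 had an end summit (83.9%). The strongest promoter summits there were at rps-26, with 460.2, and rps-1, with 262.6. Of 22 ribosome assembly genes 6 were bound (27.3%) and 3 had an end summit (13.6%), the strongest promoter summits being those of nst-1, with 198.6, and fib-1, with 132.4. Of 39 translation factor genes 10 were bound (25.6%) and 8 had an end summit (20.5%), led by eef-2, with 215.3, and eif-3.C, with 203.3. Of 70 mitochondrial ribosomal protein genes 10 were bound (14.3%) and 9 had an end summit (12.9%), led by mrpl-32, with 240.5, and mrps-21, with 149.1. In the pooled list the share with an end summit exceeded the bound share in both cytosolic subunits. It did so there in none of the other 3 gene lists. For both cytosolic subunits the order was the same in the conservative list and in each replicate list. Of the 70 mitochondrial ribosomal protein genes, 8 had an end summit and 7 were bound in the conservative list. In the list of replicate 2 these counts were 6 and 4, and in that of replicate 1 they were 1 and 2. For translation factor genes both counts were 5 in replicate 1 and 6 in replicate 2.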

How the data were processed

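HSF-1 binding was measured by ChIP-seq in 2 biological replicates of whole young adults. The authors deposited ranked and thresholded peak lists on ce11, per the labels, for each replicate and, as pooled and conservative lists, for both. The sources used here do not give the aligner, the peak caller or read numbers, so the depth is unknown. The signal of each peak is the caller's value as the authors deposited it and is not scaled between lists. The authors deposited the −log10 of the IDR of each ranked peak, which was converted to the IDR. A further 16 columns, which hold values of single peak sets without naming a sample, were left unused.

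Genes came from Ensembl release 115, whose assembly is that of the lists, and every gene whose window holds a summit was counted. Replicate values at a pooled peak come from the peak of each replicate's ranked list that overlaps it by at least 1 bp and has the nearest summit. Sequence was read from the RefSeq copy of the assembly, and that around 1 further summit is not reported here. Intervals are 95% Wilson intervals over genes or summits. With 1 group there was no test. Window assignment was tested on simulated data, and all 500 planted summits were found. Every member with a thresholded summit was named, with the genes sharing it. Among the others, the 5 highest, the 3 lowest and those with no ranked peak were named, and in each other list the 2 strongest. End summits and stalk and tunnel genes named beside these were chosen after their values were seen. The members and lists were chosen with earlier results of these data known. Of 25 ribosome assembly names 22 matched the annotation. Alternatives were other lists, windows, starts, assignments and motif settings, and those for gene ends were added after the data were seen. Python 3.11.15 with numpy 2.4.6, pandas 2.3.3, scipy 1.17.1 and matplotlib 3.10.9 was used.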

Additional observations from a re-analysis of the deposited data

How the results depend on the processing

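Of 51 alternative values 39 stayed within 1.5 times of the reported one, or, for the median signal, within its spread. Each replicate list alone gave 13 to 18 bound large subunit genes, against 3.83% to 5.29% of all protein-coding genes, and 9 to 15 small subunit genes. For gene ends the replicate lists gave 25 to 29 large subunit genes, against 2.01% to 3.41% of all. With only the pooled peaks at or above the median signal, 4.75% of all genes were bound and 15 large subunit genes. Counting each summit for its nearest start alone left 11 small subunit genes and 15 large subunit genes. With a window of 500 bp upstream to 100 bp downstream, the summit of 9 bound large subunit genes was shared, in place of 14. Ending the window 250 bp downstream gave 21 bound large subunit genes, rla-1 among them. Heat shock elements were at 2 summits with 1 mismatch within 100 bp, 0 with none, 1 within 50 bp, 7 within 200 bp and 0 with the spacing changed. End summits outside promoter windows were at 16 large subunit genes and 2.72% of all. The cause of these changes was not tested beyond what each setting removes. No paired analysis was possible because there is 1 group and no comparison between groups. Unknown depth limits what a missing peak can show.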
